A study of Homo sapiens with 18 samples.

Results

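Sialyltransferases are the Golgi enzymes that add sialic acid to the ends of glycan chains, and 10 of their genes were followed here through all 18 libraries: ST6GAL1, ST6GAL2, ST3GAL1, ST3GAL2, ST3GAL4, ST3GAL5, ST3GAL6, ST6GALNAC2, ST6GALNAC4 and ST6GALNAC6. They were taken from the raw count table by their NCBI Gene IDs, as 10 of its 28395 genes, and all 10 passed the filter on low counts, which left 15189 genes for the test of shear. The genes were selected on their values in the sheared against static contrasts at each time, so those contrasts are described below with no p for any of the 10.

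The cells were PC-3, an established human line from a prostate cancer metastasis. Detached cells in suspension were either pushed through a 30 gauge needle at 250 µL per second (sheared) or held in suspension for that time (static), and were then kept from attaching in poly-HEMA-coated wells for 3, 12 or 24 h in medium with insulin, transferrin, selenium and albumin. RNA was extracted from the cytosol, and each of the 6 groups (static and sheared at 3 h, 12 h and 24 h) had 3 libraries. Sheared and static cells with the same replicate number at a given time came from 1 pool of cells, so there were 9 pools, and the pools of different times were independent. No gene was deleted or overexpressed in any group, the whole study is on 1 cell line, and the 3 h libraries carry another batch date than the 12 h and 24 h libraries.

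Libraries held between 16400487 and 25862360 counts. Sheared library 3 at 24 h stood apart, with a TMM scaling factor of 0.721, where the other 17 lay between 0.8879 and 1.1137. Epithelial transcripts were high in every library (EPCAM 279 to 734 CPM and KRT8 721 to 2786 CPM), and KLK3, which PC-3 cells are known to lack, was at 0 counts in 17 of 18 libraries. TMPRSS2, also listed as absent from the line, was measured at 31.4 to 106 CPM. The 4 blood cell markers summed to at most 1.42 CPM, with PTPRC between 0 and 0.539 CPM. Of the fibroblast and endothelial markers, VWF and PDGFRB stayed below 0.338 CPM, whereas PECAM1 reached 109 CPM and COL1A1 36.0 CPM. Levels are given as CPM, counts scaled to library size with TMM factors, and a library holds RNA of a whole culture, so fewer cells with a transcript and less of it per cell cannot be told apart.

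Each member of the family joins sialic acid to a particular sugar through a particular bond. ST6GAL1 and ST6GAL2 make the α2,6 bond to galactose at the tips of N-glycans, the ST3GAL enzymes make the α2,3 bond to galactose on N-glycans, mucin-type O-glycans or glycolipids, and the ST6GALNAC enzymes make the α2,6 bond to N-acetylgalactosamine, on O-glycans or within gangliosides. Sialic acid is negatively charged, masks the galactose beneath it and is bound by siglecs and selectins. In carcinoma cells, more α2,6 sialylation by ST6GAL1 is known to accompany resistance to receptor-mediated death.

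Promoter windows from RefSeq (GRCh38.p14, 250 bases before to 50 bases after an annotated start) were matched for 7 of the 10 genes, as 21 windows. The windows below are of ST6GAL2 and ST6GALNAC4, the genes with the widest gap between sheared and static cells at 12 h, and of ST6GAL1, the closest relative of ST6GAL2. The first ST6GAL2 line is the window at its outermost start, on the minus strand at chr2:106887060-106887359. The second is the window at the next start, at chr2:106886820-106887119, and overlaps the first. ST6GAL1 is given on the plus strand at chr3:186930276-186930575, and ST6GALNAC4 on the minus strand at chr9:127916992-127917291. Capitals mark the GC box, GGGCGG or its reverse complement CCGCCC.
ST6GAL2 outer start: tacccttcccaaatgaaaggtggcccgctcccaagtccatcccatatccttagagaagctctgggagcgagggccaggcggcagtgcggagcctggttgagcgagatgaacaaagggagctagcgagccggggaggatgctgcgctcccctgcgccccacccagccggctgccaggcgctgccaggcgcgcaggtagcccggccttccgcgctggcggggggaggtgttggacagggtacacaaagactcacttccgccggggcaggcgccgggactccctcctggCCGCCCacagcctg
ST6GAL2 next start: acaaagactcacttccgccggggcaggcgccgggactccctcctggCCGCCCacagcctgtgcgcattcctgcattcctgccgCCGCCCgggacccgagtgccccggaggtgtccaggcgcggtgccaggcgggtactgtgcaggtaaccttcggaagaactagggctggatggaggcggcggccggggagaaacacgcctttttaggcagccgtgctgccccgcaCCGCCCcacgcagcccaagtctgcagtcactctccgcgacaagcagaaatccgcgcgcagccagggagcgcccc
ST6GAL1: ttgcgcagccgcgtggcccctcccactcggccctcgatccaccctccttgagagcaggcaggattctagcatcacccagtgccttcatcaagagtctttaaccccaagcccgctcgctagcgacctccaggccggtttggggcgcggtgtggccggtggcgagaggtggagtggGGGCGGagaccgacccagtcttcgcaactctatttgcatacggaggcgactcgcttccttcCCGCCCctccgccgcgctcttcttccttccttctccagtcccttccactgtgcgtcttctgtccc
ST6GALNAC4: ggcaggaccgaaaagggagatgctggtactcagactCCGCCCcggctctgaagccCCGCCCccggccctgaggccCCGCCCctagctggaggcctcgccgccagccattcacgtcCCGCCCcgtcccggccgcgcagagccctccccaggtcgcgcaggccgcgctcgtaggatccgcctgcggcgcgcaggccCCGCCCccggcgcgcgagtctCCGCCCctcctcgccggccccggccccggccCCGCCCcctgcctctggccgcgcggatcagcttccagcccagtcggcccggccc
The ST6GALNAC4 window held 7 GC boxes, the ST6GAL1 window 2, and the ST6GAL2 windows shown 1 and 3. The box of the outer ST6GAL2 window is the same site as the first box of the next window. Of all 4 ST6GAL2 windows, 2 had a GC box. At least 1 window of each of the 7 genes had a GC box, as did 14 of the 21 windows and 45% of all 35116 windows of that length. TGANTCA, the AP-1 site, and AAAGGTCA, the NR4A response element, were in none of the 21 windows, against 7.71% and 1.22% of all windows. TATAAA was likewise in none, against 11.5%. TGACGTCA, the cyclic AMP response element, was in 2 overlapping windows of ST3GAL5 alone (1.85% of all windows), and CCAAT in 8 windows of 4 genes (34.6%). All letters were searched on both strands, and a match or its lack says only which letters the window holds.

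Per kilobase of exon, ST3GAL1 and ST3GAL4 were far above the other 8 genes in all 6 groups. ST3GAL1, which caps core 1 O-glycans, stood at 65.4 ± 2.77 CPM per kb (SD, n = 3) in static cells at 12 h, and ST3GAL4, which acts on N-glycans and O-glycans and helps make sialyl Lewis x, at 37.7 ± 3.27 (SD, n = 3). Together they made up 73.4 to 82.5% of the summed level of the 10 genes, library by library. In static cells at 12 h ST6GALNAC6, ST6GALNAC2 and ST6GALNAC4 came next at 6.59, 6.17 and 5.15 CPM per kb, and these neighbours overlapped. ST6GAL1 at 2.27 and ST3GAL2 at 1.86 CPM per kb also overlapped each other. ST6GAL2 (1.04 CPM per kb), ST3GAL6 (0.945) and ST3GAL5 (0.526) closed the order, with ST6GAL2 and ST3GAL6 overlapping.

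The order was not the same in every group. ST3GAL1 was ranked first in the static groups and in sheared cells at 3 h, and ST3GAL4 in sheared cells at 12 h and 24 h. They overlapped in sheared cells at 3 h (42.9 to 69.3 CPM per kb for ST3GAL1 and 42.1 to 45.3 for ST3GAL4) and in static cells at 24 h (87.7 to 95.7 and 69.7 to 100.3). At 12 h after shear they also overlapped (42.9 to 49.2 CPM per kb for ST3GAL4 and 42.3 to 49.5 for ST3GAL1). At 24 h after shear ST3GAL4, at 78.9 to 85.7 CPM per kb, lay above ST3GAL1, at 53.1 to 72.8, in every library. The length used changes the order: with the median coding transcript length ST3GAL4 was ranked first in all groups but static cells at 12 h. ST3GAL5, with an exon union of 16318 bases and a median coding transcript of 2314 bases, went from rank 10 to rank 7 in static cells at 12 h.

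**Figure D1:**
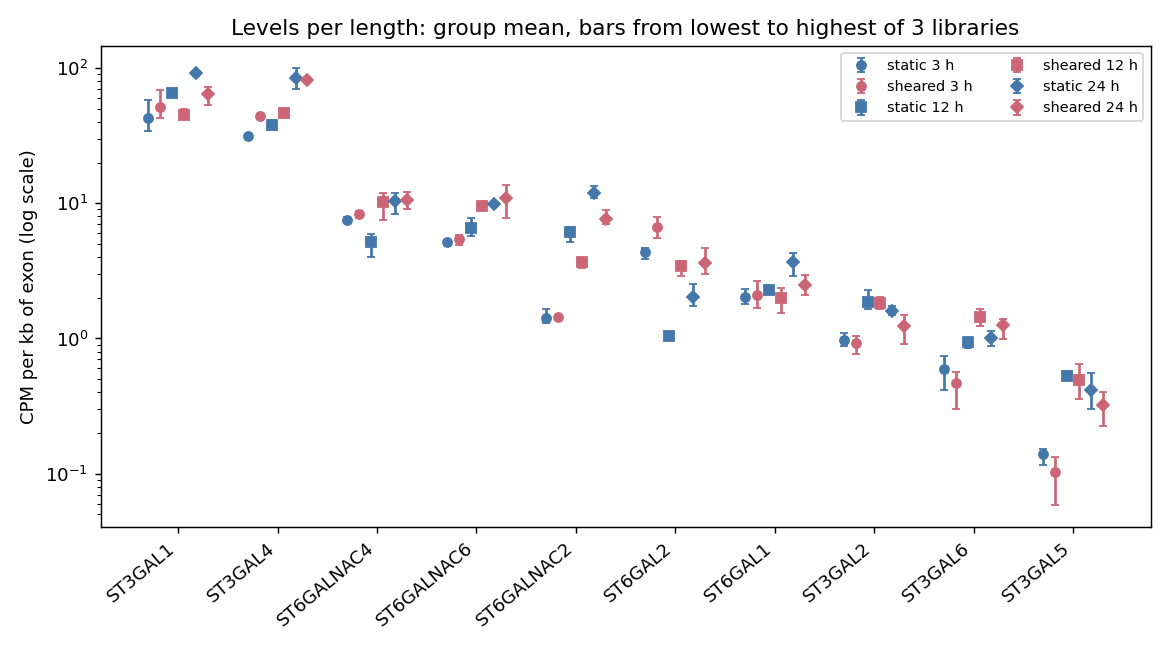
Level of each gene in TMM-scaled CPM per kilobase of exon (log axis), with 1 marker for each of the 6 group means and bars from the lowest to the highest of 3 libraries; blue is static and red is sheared. ST3GAL1 and ST3GAL4 stand above the rest in every group, ST3GAL5 is lowest, and ST6GAL2 in static cells at 12 h (1.04 CPM per kb) is the lowest of its 6 groups.

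Of the 10 genes, ST6GAL2 alone was called higher in sheared cells at all 3 times. ST6GAL2 (Gene ID 84620) is the second α2,6 galactose sialyltransferase, best known from brain and embryonic tissue, and lies on the minus strand of chromosome 2 at 106801600 to 106887108 (GRCh38, GENCODE 29). It is overlapped there by the antisense gene AC016994.1 and, on the same strand, by the intronic gene ST6GAL2-IT1. At 3 h it was at 36.2, 33.8 and 30.0 CPM in static cells and at 50.8, 60.9 and 42.6 CPM in sheared cells, in pool order. At 12 h the static libraries held 8.22, 8.28 and 7.51 CPM and the sheared ones 22.5, 28.2 and 29 CPM. At 24 h the values were 13.4, 14.0 and 19.6 CPM without shear and 23.1, 24.9 and 36.0 CPM with it. Every sheared library was above every static library of its time, and the lowest 6 libraries of the 18 were the static ones at 12 h and 24 h.

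The fitted log2 fold changes of ST6GAL2 in sheared over static cells were 0.62 ± 0.13 at 3 h, 1.72 ± 0.14 at 12 h and 0.83 ± 0.14 at 24 h, or 1.53-fold, 3.31-fold and 1.78-fold. The SE comes from the fit over all 18 libraries, which share 1 estimate of the spread, and not from the 3 pools of that time alone. Pool by pool the log2 difference lay between 0.49 and 0.85 at 3 h, 1.44 and 1.93 at 12 h, and 0.79 and 0.88 at 24 h. The call at 3 h was lost when any single 3 h pool was left out, with log2 fold changes of 0.49 to 0.67, while those at 12 h and 24 h held without each pool in turn. Without pool 3 of 24 h, which holds the library that stood apart, the 24 h value was 0.83.

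ST6GAL1 (Gene ID 6480, chromosome 3, 186930485 to 187078553, plus strand), the main α2,6 galactose sialyltransferase of most epithelia and liver, did not follow its relative. At 3 h it was at 17.7, 16.3 and 21.3 CPM in static and at 17.6, 15.3 and 24.5 CPM in sheared cells. At 12 h the values were 19.9, 21.4 and 20.9 against 18.7, 21.5 and 14.1 CPM. At 24 h they were 26.5, 34.2 and 39.4 against 19.0, 22.8 and 27.0 CPM. The groups overlapped at each time, although at 24 h the sheared library was the lower one in all 3 pools. The log2 fold changes were 0.03 ± 0.14, -0.21 ± 0.14 and -0.54 ± 0.14 (SE), and the gene was called lower at 24 h only. Without pool 3 of 24 h the value was -0.52 and no longer called.

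Since both enzymes make the same bond, their balance was computed as the share of ST6GAL2 in the sum of the pair, per kilobase of exon. At 3 h it lay between 62.6 and 71.1% in static and between 67.4 and 82.5% in sheared libraries. At 12 h the ranges were 30.0 to 32.9% without shear and 58.8 to 70.9% with it. At 24 h they were 32.7 to 37.4% and 56.4 to 61.3%. ST6GAL1 was thus the larger part of the pair in static cells at 12 h and 24 h, and ST6GAL2 in every other library. With the median coding transcript length in place of the exon union, the sheared shares at 12 h and 24 h were 43.0 to 56.3% and 40.6 to 45.5%. In static cells they were 18.4 to 20.5% and 20.4 to 24.0%, so which gene of the pair leads depends on the length. A length scales a gene alike in every library, so the order of the libraries cannot change with it, and nothing is read from that order being kept. The pair was only 2.31 to 8.60% of the summed level of the 10 genes.

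**Figure D2:**
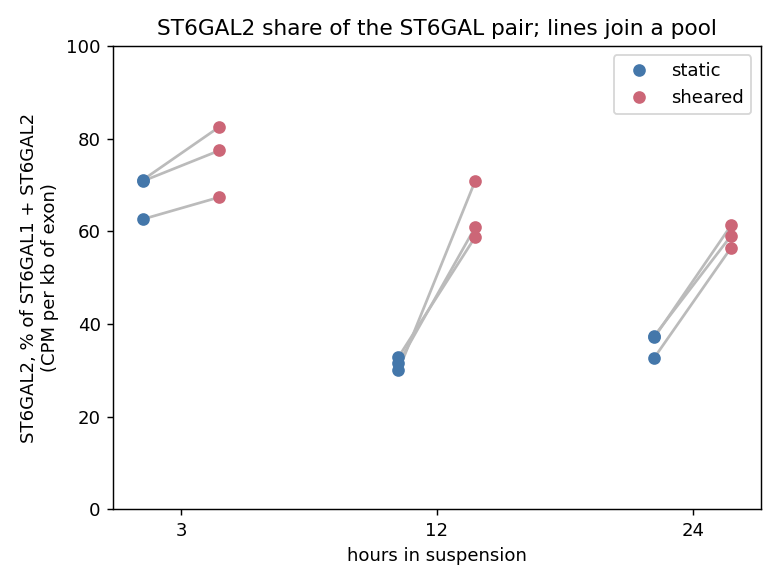
ST6GAL2 as a percentage of ST6GAL1 plus ST6GAL2, in CPM per kilobase of exon, for each library by hours in suspension; grey lines join the static (blue) and sheared (red) library of 1 pool. All 9 lines go up from static to sheared, and the static libraries at 12 h and 24 h lie between 30.0 and 37.4%.

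Among the α2,3 enzymes, ST3GAL1 and ST3GAL4 differed in direction. ST3GAL1 (Gene ID 6482, chromosome 8, minus strand) sialylates the core 1 disaccharide of O-glycans and so stops their extension. It was at 303, 315 and 516 CPM in static and 382, 379 and 613 CPM in sheared cells at 3 h. At 12 h it was at 552, 584 and 600 CPM against 375, 438 and 384 CPM, and at 24 h at 834, 776 and 847 CPM against 645, 470 and 582 CPM. The sheared library was the higher of its pool in 3 of 3 pools at 3 h and the lower in 3 of 3 at 12 h and at 24 h, and at these later times the groups did not overlap. The log2 fold changes were 0.28 ± 0.11, -0.54 ± 0.11 and -0.55 ± 0.11 (SE), called lower at 12 h and 24 h. The 24 h value without pool 3 was -0.53. Both calls were lost when the pools were not used as a block in the fit (-0.54 at each time).

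ST3GAL4 (Gene ID 6484, chromosome 11, 126355640 to 126440344, plus strand, overlapped by KIRREL3 on the other strand) was at 140, 139 and 143 CPM in static cells at 3 h and at 202, 188 and 201 CPM in sheared cells. At 12 h it was at 154, 168 and 183 against 192, 220 and 211 CPM. At 24 h it was at 311, 371 and 448 against 355, 352 and 383 CPM. The groups were apart at 3 h and 12 h and overlapped at 24 h. The log2 fold changes of 0.49 ± 0.11, 0.30 ± 0.11 and -0.04 ± 0.11 (SE) led to a call at 3 h alone, which was lost when any 3 h pool was left out (0.46 to 0.51). Without pool 3 of 24 h, whose static library was the highest of the group, the 24 h value was 0.08.

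The other 3 ST3GAL genes were low. ST3GAL6, which acts on N-acetyllactosamine chains and also contributes to selectin ligands, was at 3.74 ± 1.06 CPM in static and 2.94 ± 0.912 in sheared cells at 3 h, at 5.95 ± 0.481 and 9.04 ± 1.30 at 12 h, and at 6.34 ± 0.836 and 7.92 ± 1.44 at 24 h (SD, n = 3). Its log2 fold changes were -0.36 ± 0.19, 0.60 ± 0.18 and 0.31 ± 0.18 (SE), lower in all 3 pools at 3 h and higher in all 3 at 12 h and 24 h. Only the 12 h value was called, and that call was lost without any 1 of the 3 h or 12 h pools. ST3GAL6 overlaps DCBLD2 and ST3GAL6-AS1 on the other strand and the pseudogene PDLIM1P4 on the same strand. ST3GAL2, which sialylates O-glycans and gangliosides, gave -0.08, -0.02 and -0.40, and ST3GAL5, the GM3 synthase that starts most gangliosides, -0.47, -0.13 and -0.36, with no call at any time. ST3GAL5 rested on 25 to 196 counts a library.

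The ST6GALNAC genes also split. ST6GALNAC2 (Gene ID 10610, chromosome 17, minus strand, overlapped by AC015802.6 and the antisense AC015802.1) adds α2,6 sialic acid to the first sugar of O-glycans. At 3 h it was at 4.05, 4.10 and 5.09 CPM in static and 4.42, 4.32 and 4.66 CPM in sheared cells. At 12 h it was at 20.7, 16.0 and 20.7 against 11.7, 12.1 and 10.3 CPM. At 24 h it was at 35.8, 33.7 and 41.8 against 27.6, 21.6 and 22.3 CPM. The sheared libraries were all below the static ones at 12 h and 24 h and overlapped them at 3 h. The log2 fold changes were 0.02 ± 0.18, -0.74 ± 0.16 and -0.64 ± 0.15 (SE), with calls at 12 h and 24 h. The 12 h call was lost without pool 1 (-0.71) or pool 3 (-0.61) of 12 h, and the 24 h call without pool 3 of 24 h (-0.49).

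ST6GALNAC4 (Gene ID 27090, chromosome 9, 127907886 to 127917038, minus strand) forms the disialylated core 1 structure after ST3GAL1. Its static libraries at 12 h, at 10.6, 14.4 and 15.7 CPM, were all below the sheared ones at 19.8, 31.1 and 29.9 CPM. At 3 h the values were 19.0, 20.7 and 19.6 against 21.8, 23.0 and 20.4 CPM, and at 24 h 21.8, 31.4 and 28.4 against 23.8, 31.7 and 27.7 CPM. The groups were apart at 12 h and overlapped at 3 h and 24 h. The log2 fold changes were 0.14 ± 0.12, 0.98 ± 0.13 and 0.03 ± 0.13 (SE), with pool differences of 0.89 to 1.10 at 12 h. The 12 h call held without each of the pools in turn.

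ST6GALNAC6, which makes α2,6-disialylated gangliosides and disialyl Lewis a and lies beside ST6GALNAC4 on chromosome 9 (127885321 to 127905408), was at 33.2, 30.3 and 41.5 CPM in static and 48.7, 53.6 and 49.0 CPM in sheared cells at 12 h. The log2 fold changes were 0.08 ± 0.15 at 3 h, 0.54 ± 0.15 at 12 h and 0.12 ± 0.15 at 24 h (SE). It was called at 12 h, where the groups were apart, but not without pool 1 (0.53) or pool 2 (0.40) of 12 h. ST6GALNAC6 is overlapped by AL157935.2 on the same strand. At 24 h the pools differed in direction, from -0.31 to 0.54.

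**Figure D3:**
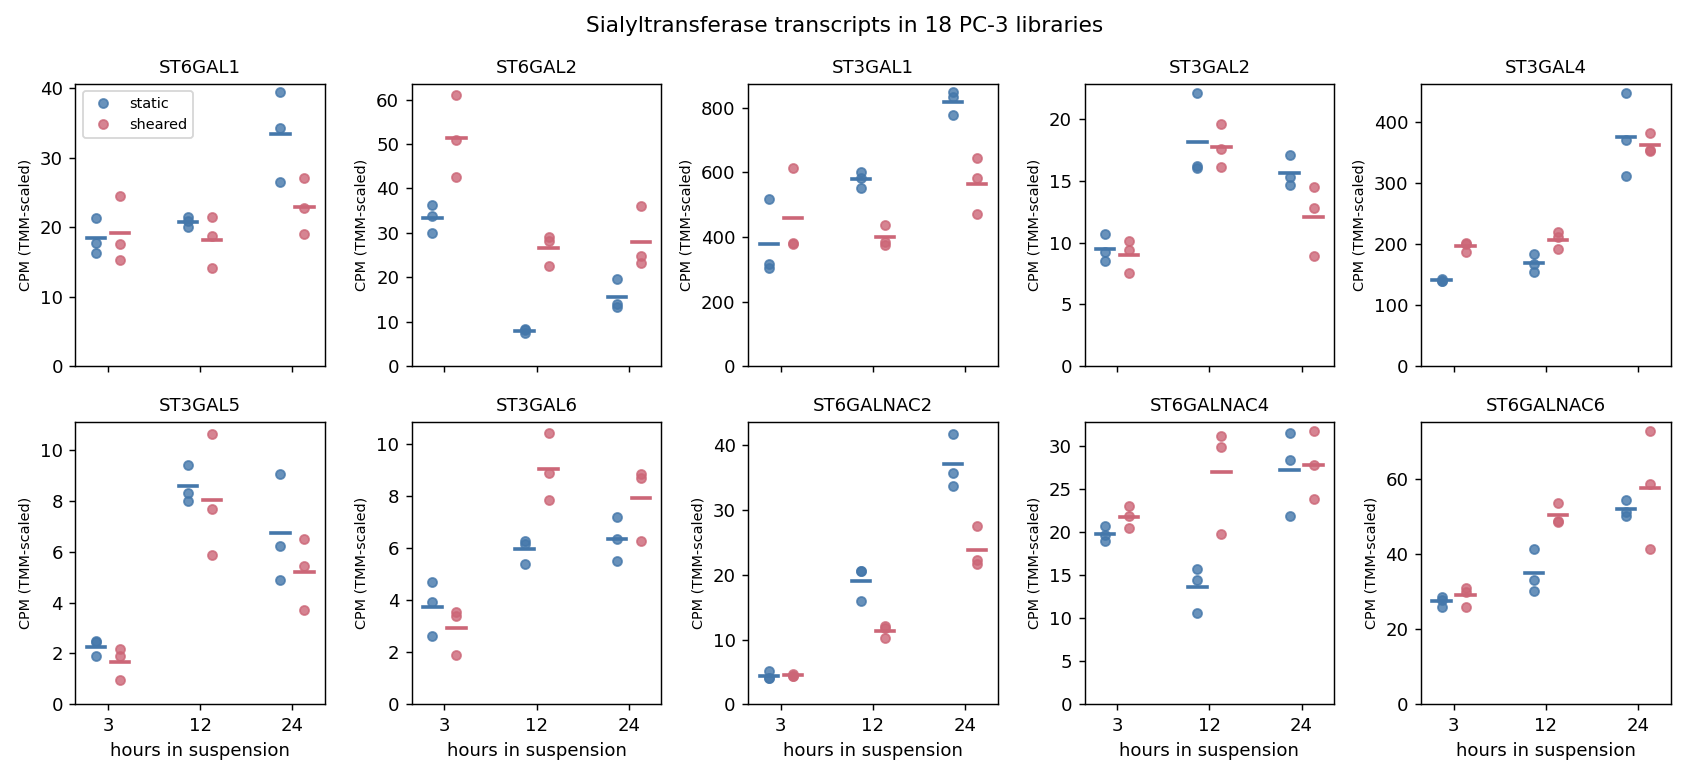
TMM-scaled CPM of the 10 genes in each of the 18 libraries by hours in suspension, each panel on its own linear axis from 0; points are libraries, lines are group means, blue is static and red is sheared. ST6GAL2 is higher in sheared libraries at each time, ST3GAL1 and ST6GALNAC2 are lower at 12 h and 24 h, and the ST6GALNAC4 groups are apart at 12 h only.

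Counted over the 10 genes, 2 were called higher and 0 lower at 3 h, where 1.12% and 0.342% of all tested genes were; 0 were lower at an unadjusted p below 0.05, and DESeq2 called 2 and 0. At 12 h, 4 were called higher and 2 lower, against 6.29% and 4.55% of all genes. At 24 h, 1 was higher and 3 were lower, against 9.13% and 8.07%. Since the choice of genes used these contrasts, nothing is read from those counts. The median log2 fold change of the 10 was 0.06, 0.14 and -0.20 at the 3 times, beside 0.01, -0.01 and -0.02 over all genes tested. Without pool 3 of 24 h, 1 gene was called higher and 1 lower at 24 h. The values of the genes not called there were -0.52 for ST6GAL1, -0.49 for ST6GALNAC2, -0.23 for ST3GAL2 and -0.28 for ST3GAL5. They were 0.08 for ST3GAL4, 0.35 for ST3GAL6, 0.09 for ST6GALNAC4 and 0.14 for ST6GALNAC6. Groups that did not overlap were seen for 2, 7 and 4 of the 10, against 18.8%, 29% and 15.1% of all genes in either direction. At 24 h the summed CPM of MALAT1 and NEAT1, RNAs known to be kept in the nucleus, was 91.3 to 165 in static and 50.6 to 474 in sheared libraries, and its part in the 24 h values was not tested. The 5 fibroblast and endothelial markers summed at 3 h to between 24.1 and 32.1 CPM without shear and between 43.3 and 43.6 CPM with it, and at 12 h to between 102 and 114 against between 63.0 and 77.0 CPM, without overlap at either time. At 24 h the sums overlapped (109 to 143 and 80.4 to 113 CPM), and their part in the shear differences was not tested.

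**Figure D4:**
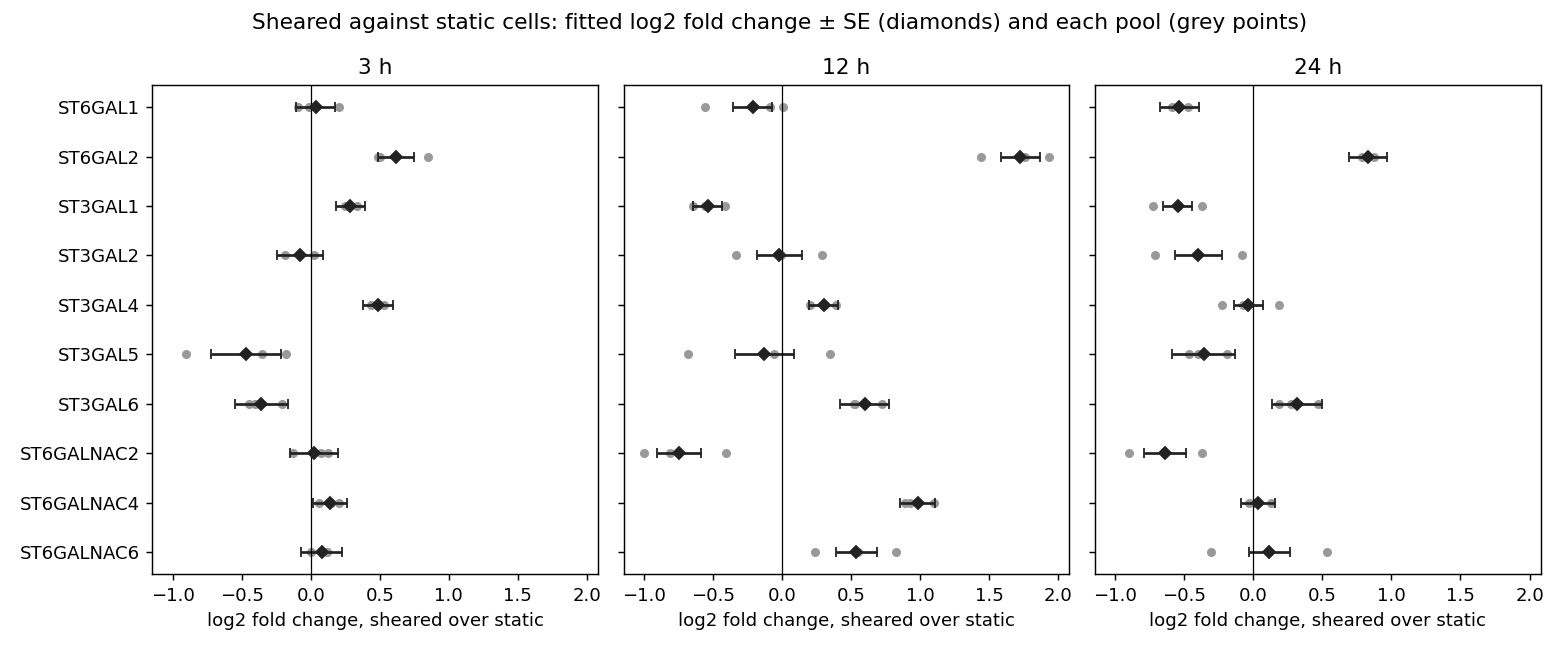
Log2 fold change of sheared over static cells for each gene at 3, 12 and 24 h; diamonds are the fitted values with SE bars and grey points are the differences within single pools. ST6GAL2 lies to the right of 0 at all 3 times, furthest at 12 h (1.72), and ST3GAL1 and ST6GALNAC2 lie to the left at 12 h and 24 h.

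In the authors' deposited table of the same contrasts, ST6GAL2 had log2 fold changes of 0.62, 1.72 and 0.85 at 3, 12 and 24 h. That table comes from the same study, and the genes were chosen on these contrasts, so nothing is read from its calls. The authors' deposited table had 1 of the 10 genes higher at 3 h (ST3GAL4), 3 higher at 12 h (ST6GAL2, ST6GALNAC4 and ST6GALNAC6) and 1 higher at 24 h (ST6GAL2) at an adjusted p below 0.05. It had ST6GALNAC2 lower at 12 h and 24 h (-0.74 and -0.62), and none lower at 3 h. ST3GAL1, at -0.53 at 12 h and -0.52 at 24 h in the authors' deposited table, did not pass the threshold of 0.05 there.

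The contrasts used to choose the genes did not include changes with time in suspension. These changes were tested within the static and within the sheared libraries, which are the same libraries as above. The tests are therefore not independent of the choice of genes. The 12 h libraries also enter both the change from 3 h and the change to 24 h, so these changes are not independent of each other. The p-values of the time changes describe the genes and are not independent evidence. From 12 h to 24 h, 7 of the 10 genes rose in static cells and 0 fell (edgeR quasi-likelihood test, adjusted over all 14804 genes tested), where 16.9% of all genes rose and 15.6% fell; none of the 10 fell at an unadjusted p below 0.05, and DESeq2 also gave 7 and 0. ST3GAL4 rose by 1.15 ± 0.14 on the log2 scale (2.22-fold, edgeR adjusted p = 1.42e-05), from 154 to 183 CPM up to 311 to 448 CPM. ST6GALNAC4 rose by 0.99 ± 0.17 (edgeR adjusted p = 4.29e-04), ST6GAL2 by 0.96 ± 0.17 (5.16e-04) and ST6GALNAC2 by 0.95 ± 0.16 (2.88e-04). ST6GAL1 rose by 0.68 ± 0.16 (edgeR adjusted p = 0.00407), ST6GALNAC6 by 0.56 ± 0.14 (0.00517) and ST3GAL1 by 0.49 ± 0.16 (0.0307). In all 7 the static libraries at 24 h were above those at 12 h without overlap, which held for 42.5% of all genes in either direction. The ST3GAL1 call was lost without any 1 of the 6 static libraries at 12 h and 24 h (edgeR adjusted p = 0.0506 to 0.109), whereas the other 6 calls held without each static library in turn. ST3GAL2 (-0.22), ST3GAL5 (-0.36) and ST3GAL6 (0.08) did not pass, though ST3GAL5 did, at -0.64, without static library 3 of 24 h.

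In sheared cells 2 of the 10 rose from 12 h to 24 h and 0 fell, where 1.75% of all 14672 genes rose and 0.797% fell (edgeR); 3 rose and 1 fell at an unadjusted p below 0.05, and DESeq2 gave 2 and 0. ST3GAL4 rose by 0.80 ± 0.15 (edgeR adjusted p = 0.0231), from 192 to 220 CPM up to 352 to 383 CPM, and ST6GALNAC2 by 1.06 ± 0.19 (0.0219), from 10.3 to 12.1 CPM up to 21.6 to 27.6 CPM. Without the sheared library that stood apart they were 0.77 and 1.12 and still called, but both calls were lost without any 1 of the 3 sheared 12 h libraries, as was that of ST3GAL4 without any sheared 3 h library and that of ST6GALNAC2 without sheared library 1 or 2 of 3 h. ST6GAL2 had a log2 fold change of 0.06 ± 0.22 (edgeR adjusted p = 0.902), -0.15 without the library that stood apart, and ST6GALNAC4 of 0.03 ± 0.21 (0.955). Whether static and sheared cells differed in these changes was not tested. The median of the 10 was 0.62 in static and 0.13 in sheared cells, beside 0.01 and 0.00 over all genes.

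Between 3 h and 12 h the batch date changed as well, and time and batch date cannot be told apart. The libraries are again those of the contrasts used to choose the genes, so these tests too are not independent of that choice. In static cells 6 of the 10 were higher and 2 lower at 12 h (edgeR; 21.7% and 22.9% of all genes), and in sheared cells 5 were higher and 1 lower (13.4% and 12.7%). ST6GAL2 fell by 2.06 ± 0.17 on the log2 scale in static cells (edgeR adjusted p = 8.84e-08), from 30.0 to 36.2 CPM down to 7.51 to 8.28 CPM, and by 0.94 ± 0.22 in sheared cells (0.00855). The sheared value missed the threshold without sheared library 2 of 3 h (-0.81, edgeR adjusted p = 0.0502). ST6GALNAC2 rose by 2.11 ± 0.17 in static cells (edgeR adjusted p = 7.77e-08) and by 1.36 ± 0.20 in sheared cells (7.44e-04). ST3GAL5 rose by 1.91 ± 0.24 in static (edgeR adjusted p = 8.05e-06) and 2.27 ± 0.36 in sheared cells (0.00116), and ST3GAL2 by 0.93 ± 0.17 (2.83e-04) and 0.99 ± 0.23 (0.00784). These 4 genes did not overlap between 3 h and 12 h in either treatment, as was so for 59.6% of all genes in static and 56% in sheared cells.

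ST3GAL6 and ST6GALNAC6 were also higher at 12 h in both treatments. ST3GAL6 rose by 0.66 ± 0.23 in static (edgeR adjusted p = 0.0269) and 1.63 ± 0.29 in sheared cells (0.00197). ST6GALNAC6 rose by 0.35 ± 0.14 (edgeR adjusted p = 0.0484) and 0.81 ± 0.21 (0.0155). ST3GAL1 rose by 0.61 ± 0.17 in static cells (edgeR adjusted p = 0.00626) and had -0.19 ± 0.22 in sheared cells (0.556). ST6GALNAC4 fell by 0.54 ± 0.17 in static cells (edgeR adjusted p = 0.0158) and had 0.32 ± 0.21 in sheared cells (0.270). In static cells, leaving out single libraries ended the calls of ST3GAL1 (0.47 without library 1 of 3 h), ST3GAL6 (0.46 to 0.69), ST6GALNAC4 (-0.40 and -0.51) and ST6GALNAC6 (0.22 to 0.38), and in sheared cells that of ST6GALNAC6 (0.73 and 0.76). ST6GAL1 and ST3GAL4 did not pass in either treatment.

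**Figure D5:**
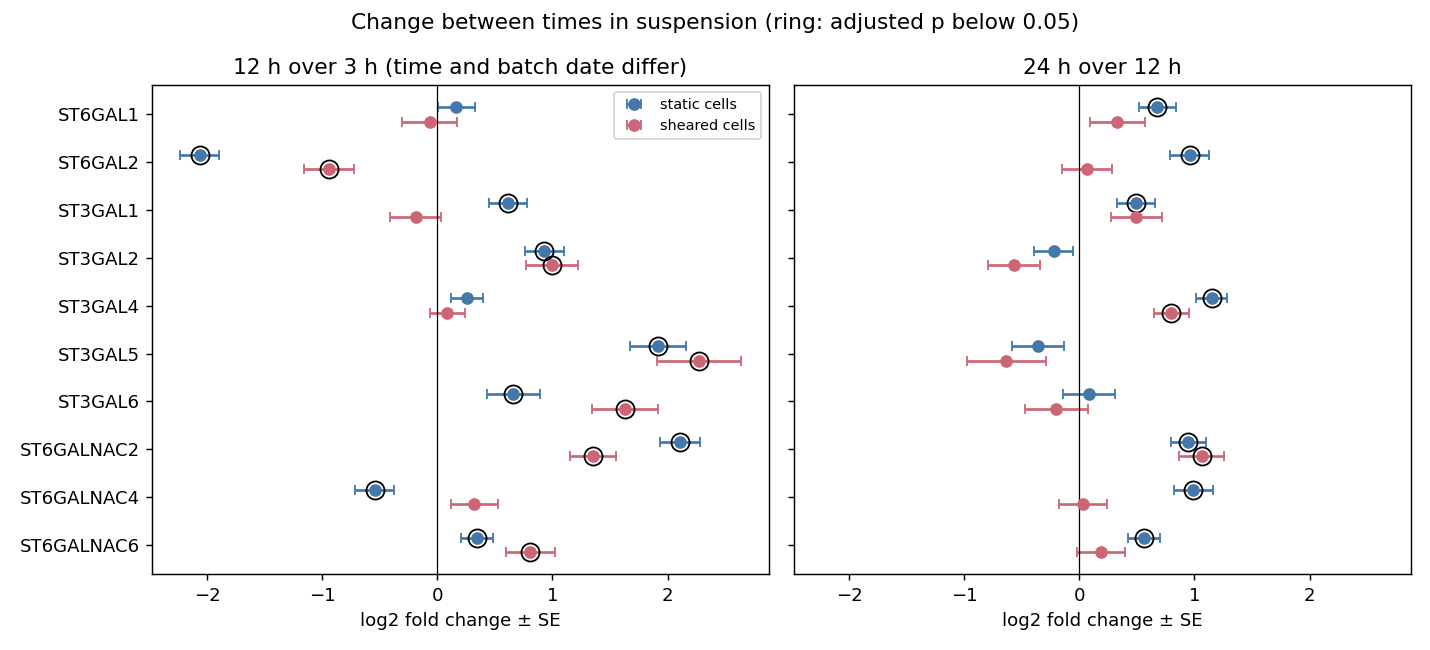
Log2 fold change with SE bars for 12 h over 3 h (left, where the batch date differs too) and 24 h over 12 h (right), in static (blue) and sheared (red) cells; a ring marks an edgeR adjusted p below 0.05. On the right 7 static and 2 sheared values are ringed, all above 0; on the left ST6GAL2 lies furthest below 0 (-2.06 in static cells).

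Of the other 10 sialyltransferase genes of the family, 5 passed the filter. These genes were listed with earlier results of these data known, so their adjusted p-values describe them and are not independent evidence. ST8SIA2 and ST8SIA3, polysialic and oligosialic acid synthases, were at 0 counts in all 18 libraries, which allows up to 0.183 CPM in the shallowest library and 0.116 CPM in the deepest (3 counts, counting error only). ST6GALNAC3 had 1 count in 1 library. ST6GALNAC5, a ganglioside sialyltransferase known from brain metastasis of breast cancer, rose by 1.07 ± 0.33 in sheared over static cells at 12 h (edgeR adjusted p = 0.0443) and by 1.34 ± 0.40 at 24 h (0.0289), higher in 3 of 3 pools at both times. In static and sheared cells it was at 1.27 ± 0.274 and 2.69 ± 0.688 CPM at 12 h, and at 0.574 ± 0.126 and 1.49 ± 0.601 CPM at 24 h (SD, n = 3). Its lowest library held 8 counts, so these fold changes rest on little depth. The 12 h call was lost without any 1 of the 3 h or 12 h pools and the 24 h call without pool 2 (1.04) or pool 3 (1.44) of 24 h. The remaining 4 tested genes, ST3GAL3, ST6GALNAC1, ST8SIA1 and ST8SIA4, passed at no time.

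The genes around the sialyltransferases were taken from 8 lists, the family list above included, with 62 of 76 genes tested. All lists were chosen with earlier results of these data known, so the counts and p-values below are given as a description only. Over all lists, 1 gene was higher and 0 lower at 3 h (1.12% and 0.342% of all genes; 8 and 2 at an unadjusted p below 0.05; 1 and 0 by DESeq2), 6 higher and 2 lower at 12 h (6.29% and 4.55% of all genes), and 6 higher and 10 lower at 24 h (9.13% and 8.07%). Without pool 3 of 24 h the last counts were 3 and 5. Their median log2 fold changes were 0.01, 0.00 and -0.07, beside 0.01, -0.01 and -0.02 over all genes. The lists supply the donor sugar, build the glycans that receive it, remove it, or carry it.

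Of the 5 tested genes for making, activating and carrying sialic acid, GNE and SLC35A1 passed. GNE, the rate-limiting enzyme of sialic acid synthesis, fell by 0.54 ± 0.14 at 12 h (edgeR adjusted p = 0.0210), lower in 3 of 3 pools, and by 0.49 ± 0.14 at 24 h (0.0250), lower in 2 of 3 pools. SLC35A1, the Golgi transporter of CMP-sialic acid, fell by 0.56 ± 0.18 at 24 h (edgeR adjusted p = 0.0387), lower in 2 of 3 pools. GNE lost its 12 h call without any 12 h pool (-0.48 to -0.57) and its 24 h call without pool 2 or 3 of 24 h (-0.36 and -0.34), and SLC35A1 its call without pool 1 or 3 of 24 h (-0.39 each) or any 1 of the 3 h or 12 h pools. None of the 7 tested genes for removing or modifying sialic acid, such as the lysosomal sialidase NEU1, passed at any of the 3 times (edgeR; 1 higher at 3 h and 1 lower at 12 h at an unadjusted p below 0.05, the latter, CASD1, called by DESeq2).

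N-glycan building genes moved in both directions, with 3 of 13 higher and 1 lower at 12 h (6.29% and 4.55% of all genes), and 1 higher and 4 lower at 24 h (9.13% and 8.07%). B4GALT4, a galactosyltransferase that makes the acceptor galactose, rose by 0.82 ± 0.14 at 12 h (edgeR adjusted p = 0.00135) and by 0.91 ± 0.14 at 24 h (2.29e-04), higher in all 6 pools. At 24 h it varied widely between pools, between 56.2 and 151 CPM without shear and between 83.1 and 398 CPM with it. B4GALT2, another galactosyltransferase, rose by 0.60 ± 0.11 at 12 h (edgeR adjusted p = 0.00210). MAN1A2, a Golgi mannosidase that trims N-glycans, fell by 0.71 ± 0.12 at 12 h (edgeR adjusted p = 0.00110) and by 0.52 ± 0.12 at 24 h (0.00531). At 24 h the mannosidase MAN1A1 fell by 0.76 ± 0.14 (edgeR adjusted p = 0.00137) and the branching enzyme MGAT2 by 0.71 ± 0.14 (0.00194), both lower in 3 of 3 pools. MGAT5 (-0.47, adjusted p = 0.0102 in edgeR), another branching enzyme, was lower at 24 h, and MGAT4A (0.57, 0.0304) higher at 12 h. Leaving out a pool ended the calls of MGAT4A (without any 12 h pool, or pool 2 of 3 h) and MGAT5 (without pool 2 of 24 h), and none of the other 7 calls named here. Without the pools as a block, both calls of B4GALT4 were lost (edgeR adjusted p = 0.352 at 12 h and 0.152 at 24 h). So were both of MAN1A2 (edgeR adjusted p = 0.0647 and 0.123) and those of MGAT4A and MGAT5. With each time fitted alone, the 24 h calls of MAN1A2 (edgeR adjusted p = 0.0804) and MGAT5 were also lost.

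O-glycan initiation and core genes gave 0 calls at 3 h and 12 h (edgeR; 0 genes at 3 h and 1 higher at 12 h at an unadjusted p below 0.05, this one, GALNT12, called by DESeq2), and 4 of 11 were lower at 24 h, as were 8.07% of all genes. GALNT7, which adds the first O-linked sugar to partly glycosylated sites, fell by 0.70 ± 0.13 (edgeR adjusted p = 0.00133), with static libraries at 23.8 to 27.8 CPM and sheared ones at 15.5 to 16.5 CPM. GALNT6 fell by 0.40 ± 0.11 (edgeR adjusted p = 0.0199) and B3GNT3, which extends core 1, by 0.52 ± 0.15 (0.0234), and both calls were lost without pool 3 of 24 h (-0.37 and -0.22). GCNT1, the core 2 enzyme that competes with ST3GAL1 for core 1, had 6 to 9 counts in static and 0 to 1 in sheared libraries at 24 h, 22 counts against 1 in all, and its call was lost without any 1 of the 24 h pools. The GALNT6 call was also lost without pool 2 of 24 h. That of GALNT7 held without each pool but was lost with the 24 h libraries fitted alone (edgeR adjusted p = 0.0520).

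UGCG, which makes the glucosylceramide core of gangliosides, was the 1 list gene called at 3 h, with a rise of 0.75 ± 0.13 (edgeR adjusted p = 0.00449) with static libraries at 25.7 to 42.2 CPM and sheared ones at 54.3 to 63.9 CPM. That call was lost without pool 2 (0.74) or pool 3 (0.60) of 3 h. The 6 tested fucosyltransferases (FUT1, FUT2, FUT3, FUT4, FUT6 and FUT8), of which FUT3, FUT4 and FUT6 can act on the chains that ST3GAL4 and ST3GAL6 sialylate and FUT8 adds core fucose, gave no call at any time (edgeR; 2 lower at 3 h, 2 at 12 h and 0 at 24 h at an unadjusted p below 0.05; 0 by DESeq2). Of 8 glycoproteins known to carry sialic acid, 2 were higher at 12 h (6.29% of all genes) and 4 at 24 h (9.13%). MCAM, an adhesion molecule, rose by 0.47 ± 0.12 at 12 h (edgeR adjusted p = 0.0160) and 0.64 ± 0.12 at 24 h (0.00153). PODXL, a sialomucin, rose by 0.51 ± 0.12 (edgeR adjusted p = 0.0123) and 0.44 ± 0.12 (0.0220). EGFR rose by 0.68 ± 0.16 at 24 h (edgeR adjusted p = 0.00766), and FAS, the death receptor, by 0.77 ± 0.25 (0.0399), in 3 of 3 pools each. Without pool 3 of 24 h EGFR was at 0.42 and FAS at 0.41, neither called, and both calls were also lost without pool 1. The FAS call was lost as well without pool 2 or 3 of 3 h or pool 1 or 2 of 12 h. The 24 h call of MCAM held without each pool but was lost with the 24 h libraries fitted alone (edgeR adjusted p = 0.0519). That of PODXL was lost without pool 2 (0.34). At 12 h the MCAM call was lost without any 12 h pool (0.42 to 0.54) and the PODXL call without pool 2 or 3 (0.54 and 0.41).

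Among 12414 genes, those whose log2 CPM over the 18 libraries lay closest to that of ST6GAL2, after centring each gene on its mean, were NRP2 (root mean square difference 0.34), RCL1 (0.40), PDE1C (0.41) and VSIR (0.42), where the median gene was at 0.94. NRP2, a neuropilin, had shear log2 fold changes of 0.29, 1.22 and 1.40 at 3, 12 and 24 h. Closest to ST6GAL1 were the sulfatase SULF2 (0.13), GALNT6 (0.19), AIG1 (0.19) and KIAA0319L (0.20), with the median gene at 0.53. SULF2 had shear log2 fold changes of -0.07, -0.46 and -0.49. These distances describe 18 libraries that share groups and pools, and carry no test.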

How the data were processed

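RNA from 18 PC-3 cultures was sequenced by a company, per the labels, and aligned with STAR to GRCh38.p13, per the submitters' processing notes. The authors deposited raw counts per NCBI Gene ID. Which tool counted the reads, on which annotation and with which use of strand was not given in the sources used here, so reads of a gene and of one that overlaps it cannot be told apart. The authors also deposited tables per time with DESeq2's log2 fold changes, their p-values and adjusted p-values, a test score (stat) and a mean signal (baseMean), per the file headers, and whether their fit used the pools was not stated. The 3 h count columns were assigned by reading their letters as the 12 h and 24 h library names use them (U for static, S for sheared). No other column of sample values was left over (0).

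Counts were tested with edgeR 4.0.16 (R 4.3.3; legacy robust quasi-likelihood fit, TMM factors, filterByExpr with a minimum count of 10 and total of 15). Shear effects came from 1 fit over 18 libraries with the 9 pools as a block (6 residual degrees of freedom), and time effects from fits over the 9 static or 9 sheared libraries without a block. The pools come from the series' design text. Deviations of libraries that share a pool correlated between 0.0881 and 0.299 at 3 h, between -0.148 and 0.245 at 12 h, and between 0.379 and 0.504 at 24 h. For sheared and static libraries of different pools the ranges were -0.242 to 0.130, -0.385 to 0.233 and -0.296 to -0.0924. Same-pool and different-pool ranges overlapped at 3 h and 12 h and were apart at 24 h. Adjusted p-values are Benjamini-Hochberg over all genes tested, with a threshold of 0.05, and a gene past it is called. SE is the log2 fold change over the root of F. Pool differences used log2 CPM with a prior count of 2. Lengths are from GENCODE 29. The fits were tested on simulated data.

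The members and all lists were chosen with earlier results of these data known. Named genes were the 10 members, up to 3 called genes per list and time by smallest p, and the 4 genes nearest ST6GAL2 and ST6GAL1. GCNT1, FAS, MGAT4A, and MAN1A2 and MGAT5 at 24 h fall outside that rule and were named after their values were seen. With 3 libraries a group, p-values of shear rest on how the sheared against static difference varies between pools, with 1 estimate over all 18 libraries. P-values of time rest on the spread between the cultures of a group. Neither reaches beyond these cultures. Alternatives were DESeq2 1.42.0, RLE factors, no filter on low counts, no block or a block, single times alone, each pool or library left out, and, chosen after seeing the data, the median coding transcript length. Some marker genes are not reported here.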

Additional observations from a re-analysis of the deposited data

Results flagged for a closer look

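For ST3GAL1 the shear difference had opposite signs at different times: the sheared library was higher than the static one in all 3 pools at 3 h and lower in all 3 at 12 h and at 24 h. The mean log2 difference moved by -0.82 from 3 h (0.28) to 12 h (-0.54), and by -0.83 from 3 h to 24 h (-0.55). For ST3GAL6 the pools went the other way, lower in all 3 at 3 h and higher in all 3 at 12 h and at 24 h. Its mean log2 difference moved by 0.94 from 3 h (-0.35) to 12 h (0.59), and by 0.66 from 3 h to 24 h (0.31). These differences between times were not tested, and at 3 h the batch date differs as well, so time and batch date cannot be told apart.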

How the results depend on the processing

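All 420 alternative values of the members' log2 fold changes between sheared and static cells lay within 1 SD of the pools' differences from the reported value, although 27 of them lost a call and 2 gained one. Leaving out 1 of 3 pools cannot move their mean by 1 SD, and leaving out a pool of another time hardly touches it. For those settings that outcome was thus close to fixed in advance. Of the alternative values between times, 474 kept direction and call, 36 lost the call, 1 gained it and 9 changed sign. Without the replicate block for the pools, the members called in sheared cells were 0 higher at 3 h, 2 higher and 1 lower at 12 h, and 1 lower at 24 h, and of the listed genes 0 were higher at 3 h, 1 higher and 0 lower at 12 h, and 1 higher and 4 lower at 24 h. With each time fitted alone, 1 member was lower at 24 h, and of the listed genes 9 were higher and 2 lower at 3 h, 4 lower at 12 h, and 1 higher and 2 lower at 24 h. With no filter on low counts 3 listed genes were higher at 3 h and 4 lower at 12 h. Leaving out 1 pool at a time gave 0 to 2 members higher at 3 h, 2 to 5 higher and 1 to 2 lower at 12 h, and 1 to 3 lower at 24 h. For the listed genes it gave 0 to 3 higher at 3 h, 2 to 9 higher and 1 to 6 lower at 12 h, and 3 to 6 higher and 5 to 10 lower at 24 h. Leaving out 1 library at a time gave 0 to 1 members lower from 12 h to 24 h in static cells and 0 to 2 higher in sheared cells, 3 to 6 higher and 1 to 2 lower from 3 h to 12 h in static cells, and 0 to 1 lower in sheared cells.
Small values changed sign in that way: ST3GAL6 from 12 h to 24 h in static cells (-0.0249 to 0.17), ST6GAL2 (-0.15 to 0.18), ST6GALNAC4 (-0.15 to 0.15) and ST6GALNAC6 (-0.026 to 0.39) in sheared cells, and ST6GAL1 (-0.22 to 0.15) and ST3GAL1 (-0.31 to 0.082) from 3 h to 12 h in sheared cells. Replicate numbers do not pair pools of different times (correlations from -0.426 to 0.0407), and with a replicate block on them 0 members were higher from 12 h to 24 h in sheared cells. The cause of these changes was not tested. Depth limits ST3GAL5 and ST3GAL6 most, with at least 25 and 49 counts a library.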
